A study of Schizosaccharomyces pombe with 12 samples.

Results

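The response to heat of fission yeast (Schizosaccharomyces pombe) cells with a truncated Lsd1 was measured in 4 of the 12 RNA-seq libraries analysed here. They are the 2 lsd1-ΔHMG libraries labelled 37 C, set against the 2 lsd1-ΔHMG libraries labelled 30 C, and they were chosen by these labels alone. The allele deletes the C-terminal end of Lsd1, which holds the HMG box, a fold that binds DNA. All 4 libraries carry it, so the comparison shows what temperature did within this strain and not what the truncation did. Cells at 37°C had been shifted from 30°C for 2 hours, and cells at 30°C stayed there. The other 8 libraries are set1Δ cells, which lack the only H3K4 methyltransferase of this yeast, at 37°C and at 30°C, and wild-type (WT) cells at 37°C and at 30°C, with 2 libraries each. The study describes its replicates as derived independently, and names no clone, culture batch or day for them. Its strain list gives several lsd1-ΔHMG strains with an FTP tag on Lsd1, the NatN2 marker, leu1, ade6 and his2 mutations, changes at ura4 and, in some, a ura4+ reporter at the centromere. The entry from which RNA was made, and its mating type, are not stated in the sources used here.

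Lsd1 belongs to the amine oxidase family of histone demethylases and works in a complex with its paralogue Lsd2 and the PHD finger proteins Phf1 and Phf2, at promoters of active genes and at heterochromatin borders. When fission yeast is shifted to a higher temperature, proteins unfold, the transcription factor Hsf1 binds heat shock elements in promoters, and the mRNAs of chaperones accumulate. In parallel the MAP kinase Sty1 and its transcription factor Atf1 switch on a set of genes shared by many stresses, which make trehalose and glycerol and remove oxidants. Chaperones hold, refold or take apart unfolded proteins: small heat shock proteins bind them, Hsp70 with its Hsp40 partners and exchange factors folds them, Hsp90 with its co-chaperones finishes many of them, and Hsp104 takes aggregates apart.

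Totals were 29629741 to 34843663 counts in the lsd1-ΔHMG libraries and 27642330 to 34843663 in all 12. Levels are given as CPM, the count of a feature per 1000000 counts of a library's scaled total. The 2 libraries of a temperature gave log2 CPM values that correlated at 0.996 at 37°C and 0.993 at 30°C across features, which are not independent replicates. Of the lsd1 gene itself 33.4 and 31.3 CPM were counted in lsd1-ΔHMG at 37°C, against 52.4 and 47.9 CPM at 30°C. Counts of a whole gene include its retained part, so they do not check the truncation. The set1 gene checks the set1Δ labels, with 14.35 to 16.15 CPM in the 4 set1Δ libraries, against 64.4 to 112 CPM in the 8 others. The libraries labelled WT go against their temperature in part: hsp16, for a small heat shock protein, had 4533 and 5798 CPM in WT labelled 37 C, against 39422.5 and 36205 CPM in WT labelled 30 C, while wis2, for a cyclophilin that partners Hsp90, had 1199 and 1199 CPM in WT labelled 37 C, against 478 and 527 CPM in WT labelled 30 C. What these libraries hold was not settled, and values that rest on them are named as such. They enter the test of the lsd1-ΔHMG response through the estimate of spread, the scaling and the count filter that sets which features are tested. The counts from the 4 lsd1-ΔHMG libraries alone are given beside the main ones.

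The heat shock element is the sequence that Hsf1 binds. The following stretches of 80 bases, which show it, come from the 250 bases before the start of 5 genes in the RefSeq genome, assembly ASM294v3, read 5′ to 3′ on the strand of each gene. They were chosen because they are the 4 chaperone genes, and the one gene among the largest increases outside the chaperones, in which 3 units of GAA and TTC alternate with 2 bases between them. The capitals mark that element.
ssa1: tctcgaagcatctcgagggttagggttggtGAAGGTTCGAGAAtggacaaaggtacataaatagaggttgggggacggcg
wis2: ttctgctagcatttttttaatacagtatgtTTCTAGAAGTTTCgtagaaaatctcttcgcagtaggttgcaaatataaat
cnx1: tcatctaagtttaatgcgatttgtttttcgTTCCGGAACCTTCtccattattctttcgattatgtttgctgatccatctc
SPBPB2B2.05: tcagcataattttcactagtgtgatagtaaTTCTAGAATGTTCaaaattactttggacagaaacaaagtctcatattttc
ssa2: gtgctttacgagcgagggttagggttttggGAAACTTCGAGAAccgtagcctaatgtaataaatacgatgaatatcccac
The first base of the element lies 58 bases before the gene start in ssa1, for an Hsp70, 75 before it in wis2, 104 before it in cnx1, for the ER chaperone calnexin, 93 before it in SPBPB2B2.05, annotated as a glutamine amidotransferase of class I, and 59 before it in ssa2, for another Hsp70. At 37°C the levels of wis2, SPBPB2B2.05 and ssa1 rose, those of ssa2 gave a log2 fold change of 0.87, and those of cnx1 overlapped between temperatures.

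In lsd1-ΔHMG cells 2 hours at 37°C left more genes lower than higher. Of 6904 features tested, 1031 were called changed (14.9%), 309 of them higher (4.48%) and 722 lower (10.5%). A feature was called where edgeR's quasi-likelihood test gave an adjusted p under 0.05 and the log2 fold change reached 1 in size, where a positive value means a higher level at 37°C. The median log2 fold change of all features was 0.05. The 4 lsd1-ΔHMG libraries alone gave 1019 calls, 244 higher and 775 lower, and scaling on protein-coding genes alone gave 1095 calls, 217 higher and 878 lower, moving the median to -0.05 and the share of higher calls to 19.8%, against 30.0% in the main test. Among protein-coding genes 187 of 5104 rose (3.66%) and 347 fell (6.80%), with a median of 0.13. The genes that fell had a median length of 1343 bases, against 1774 bases for all protein-coding genes tested and 2051 bases for those that rose. Their median level at 30°C was 173 CPM for those that fell, 97.2 CPM for all and 45.6 CPM for those that rose, not adjusted for length. With offsets for GC content and length, which could be fitted for 6673 features, 329 were called higher and 499 lower (39.7% higher); of the 722 that fell 637 entered that fit, where 440 kept the call and 197 lost it, and of the 309 that rose 305 entered it, where 227 kept the call. Library totals alone gave 390 higher and 656 lower (37.3% higher). The plot of all features shows the calls against level. In a culture, fewer cells in a given state and less RNA per cell cannot be told apart, and CPM is a share of each library, so no value here is an amount per cell.

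**Figure D1:**
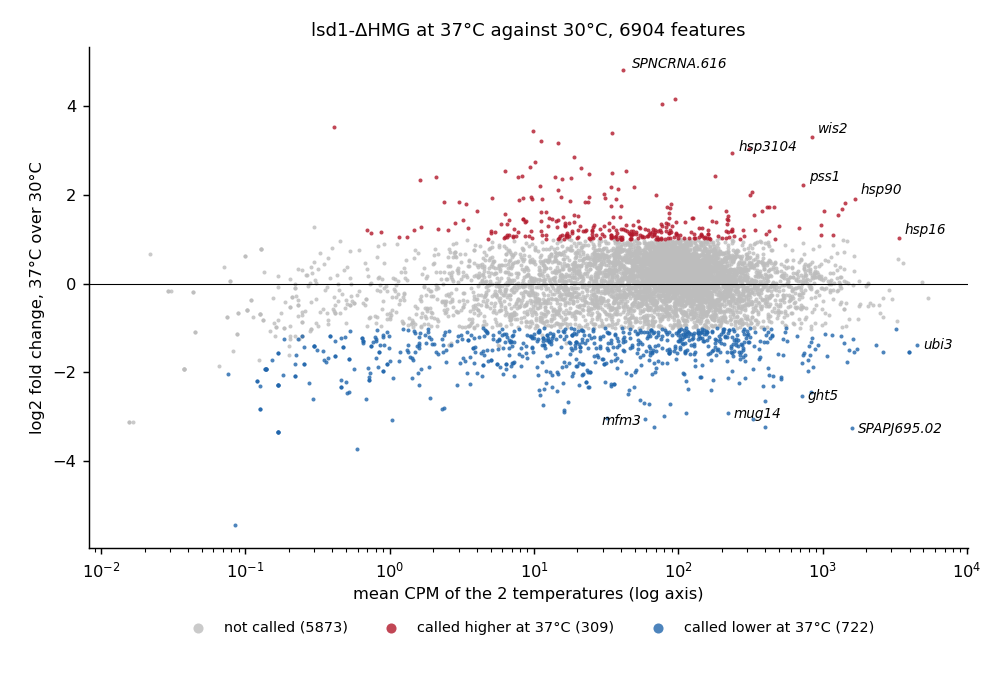
Log2 fold change at 37°C over 30°C in lsd1-ΔHMG (vertical axis) against mean CPM of both temperatures on a log axis, for 6904 features, each point 1 feature. Red points are the 309 called higher and blue points the 722 called lower; the chaperone genes wis2, pss1, hsp90 and hsp16 stand above the line, and SPAPJ695.02, mug14, ght5 and mfm3 below it.

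Many chaperone genes rose. Across 5 lists (small heat shock proteins, the Hsp70 system, the Hsp90 system, mitochondrial chaperones and chaperones of the endoplasmic reticulum), 17 of 34 members rose (50%), against 4.48% of all features, and none fell. Their median log2 fold change was 0.96, against 0.05 for all features, and 29 of 34 had a positive value. Summed over the 34 genes they took 32206 and 31657 CPM at 37°C, against 16393 and 16561 CPM at 30°C, a log2 ratio of 0.95. In each of the 17 the libraries of the temperatures did not overlap. The same held for 1028 of all 1031 called features and for 5702 of the 6904 tested. With 2 libraries per temperature, a lack of overlap therefore adds little to a call, here and below.

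The Hsp90 system had the highest median of the 34 gene lists, 1.69, and 6 of its 8 members rose. The level of wis2, whose cyclophilin assists Hsp90, was 1530.2 and 1548 CPM at 37°C, against 152 and 160.3 CPM at 30°C. The values at 37°C stood far above those at 30°C, with a log2 fold change of 3.30 (SE 0.09, adjusted p = 7.41e-11). For hsp90, the chaperone itself, 2934 and 2349 CPM at 37°C, against 712 and 689 CPM at 30°C were counted, 1.91 (SE 0.14, adjusted p = 1.1e-07), and the libraries did not overlap. The co-chaperones that rose beside it were aha1, which speeds up the ATPase of Hsp90, with 533 and 512 CPM at 37°C, against 131 and 118 CPM at 30°C, wos2, the p23 protein, with 2217 and 2263 CPM at 37°C, against 617 and 651 CPM at 30°C, and sti1, which links Hsp70 to Hsp90, with 516 and 489 CPM at 37°C, against 176 and 165 CPM at 30°C. Their log2 fold changes were 2.07, 1.82 and 1.56. The kinase-specific co-chaperone cdc37 rose less, with 307 and 295 CPM at 37°C, against 147 and 142 CPM at 30°C and a log2 fold change of 1.06; the call was lost in 5 of 14 alternative settings, with 0.79 under the offsets for GC content and length. The remaining members were not called: cns1 had 104 and 100.4 CPM at 37°C, against 56.6 and 53.8 CPM at 30°C (log2 fold change 0.89), without overlap, and git7, an SGT1-like protein, had 87.4 and 86.3 CPM at 37°C, against 80.2 and 78.2 CPM at 30°C (0.13).

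In the Hsp70 system 4 of 9 members rose, and they include proteins that load and unload Hsp70 as well as Hsp70 itself. The largest change was that of pss1, an Hsp110 that exchanges the nucleotide of Hsp70, with 1289 and 1135 CPM at 37°C, against 259 and 262 CPM at 30°C and a log2 fold change of 2.22 (SE 0.13, adjusted p = 8.12e-09). The exchange factor fes1 followed with 488 and 519.8 CPM at 37°C, against 128 and 122 CPM at 30°C, 2.01 on the log2 scale. Both were above all 30°C values in every library at 37°C. The Hsp40 mas5 had 634 and 519 CPM at 37°C, against 188 and 182 CPM at 30°C and the Hsp70 gene ssa1 had 592 and 593 CPM at 37°C, against 266 and 251 CPM at 30°C, with log2 fold changes of 1.64 and 1.20. The other Hsp70 gene, ssa2, missed the limit at 0.87, with 1732 and 1305 CPM at 37°C, against 818 and 847 CPM at 30°C, though the temperatures did not overlap. Among the chaperones that sit at the ribosome, ssz1 gave 0.57 and zuo1 gave 0.81, while sks2, the Hsp70 that binds nascent chains, went the other way with 645 and 452 CPM at 37°C, against 932 and 988 CPM at 30°C (-0.81); none of them was called. The Hsp40 psi1 gave 0.48.

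Among the small heat shock proteins and disaggregases 2 of 5 members rose. The level of hsp16 was 3968 and 5094 CPM at 37°C, against 2261 and 2179 CPM at 30°C, and that of hsp20 was 590.4 and 671 CPM at 37°C, against 202 and 179.8 CPM at 30°C. Neither overlapped, and the log2 fold changes were 1.03 (SE 0.16, adjusted p = 7.71e-05) for hsp16 and 1.72 (SE 0.09, adjusted p = 5.75e-09) for hsp20. The call of hsp16 lies at the limit and was lost in 6 of 14 alternative settings, among them the fit without replicate 2 at 37°C, which gave 0.84. The disaggregase hsp104 had 279 and 318 CPM at 37°C, against 204 and 188 CPM at 30°C, a log2 fold change of 0.61 that was not called. The membrane-associated hsp9 did not follow, with 1800.1 and 1909.9 CPM at 37°C, against 2377 and 2811 CPM at 30°C (-0.48), and hsf1, the heat shock transcription factor, had 244 and 216 CPM at 37°C, against 207 and 207 CPM at 30°C (0.15), both not called.

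Chaperones of the mitochondrial matrix rose almost as a group, with 5 of 6 members called and a median of 1.26, while none of 6 in the endoplasmic reticulum was called (median 0.11). The chaperonin pair hsp10 and mcp60 had 1998 and 2176 CPM at 37°C, against 650.5 and 655 CPM at 30°C for hsp10 and 1440.4 and 1226 CPM at 37°C, against 637 and 608 CPM at 30°C for mcp60, log2 fold changes of 1.68 and 1.10; without replicate 1 at 37°C mcp60 gave 0.98. The matrix Hsp70 ssc1 had 2023 and 1794 CPM at 37°C, against 662 and 642 CPM at 30°C, its Hsp40 partner mdj1 had 224 and 222 CPM at 37°C, against 100.5 and 91.8 CPM at 30°C, and the matrix disaggregase hsp78 had 661 and 747 CPM at 37°C, against 310.2 and 260.5 CPM at 30°C. Their changes were 1.55, 1.21 and 1.30 without overlap between temperatures. The exchange factor of ssc1, mge1, was the exception, with 322 and 327 CPM at 37°C, against 350.2 and 347 CPM at 30°C (-0.10). In the endoplasmic reticulum the Hsp70 bip1 came nearest to the limit, with 1806 and 1726 CPM at 37°C, against 1087 and 1049 CPM at 30°C (0.73). The oxidoreductases pdi1 and ero12 and the Hsp40 scj1 gave 0.20, 0.11 and 0.11, and the levels of the exchange factor sil1 and of calnexin, cnx1, overlapped between temperatures (-0.05 and -0.15).

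**Figure D2:**
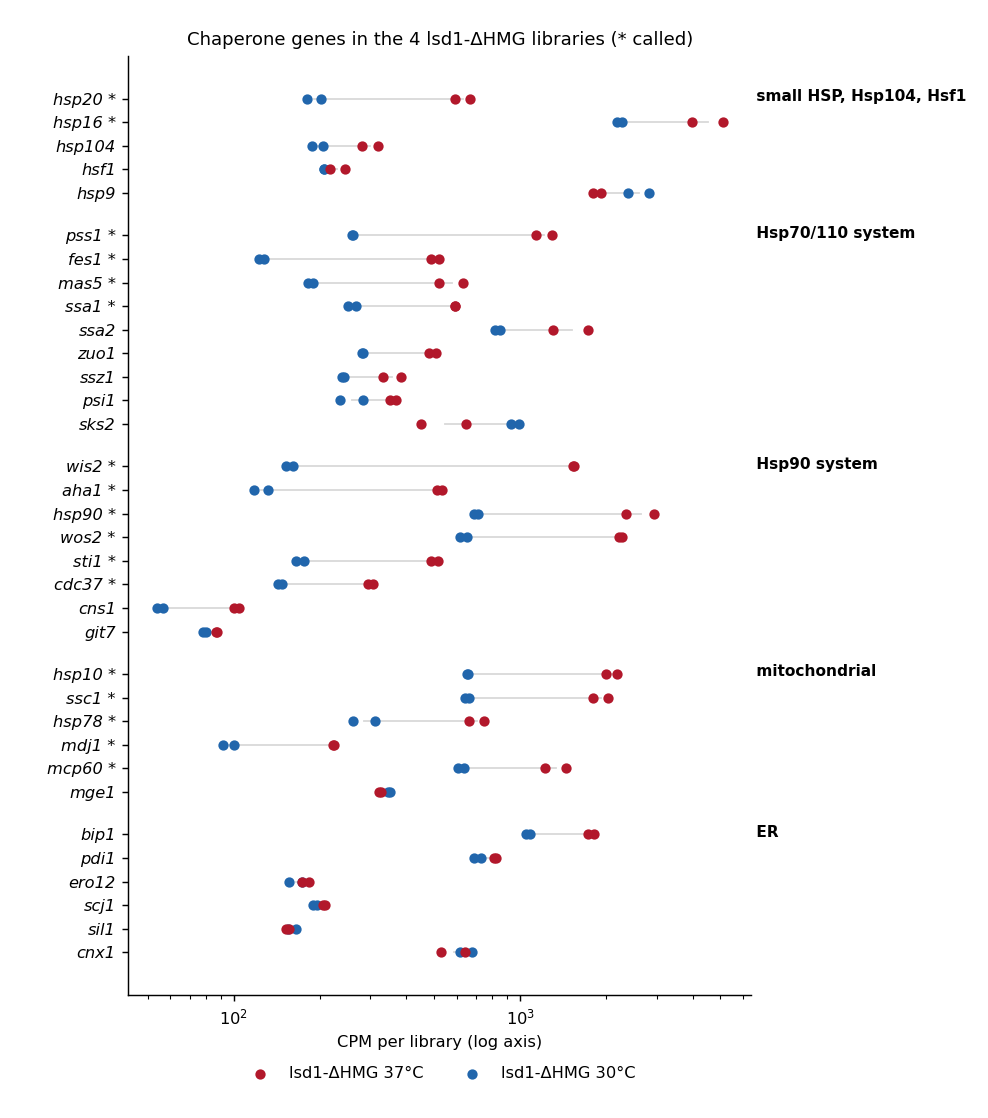
CPM of 34 chaperone genes on a log axis in each lsd1-ΔHMG library, red at 37°C and blue at 30°C, with a grey line between the means and an asterisk on the 17 called genes. The Hsp90, Hsp70 and mitochondrial groups separate widely for most members, whereas the ER group and mge1, git7 and hsf1 lie close together.

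CCT, the chaperonin that folds actin and tubulin in the cytosol, and prefoldin, which hands it substrates, gave values mostly of opposite sign. Of 8 CCT subunits 7 had a positive value and none reached the limit of 1 (median 0.46). The highest values were in cct5 (0.64), cct1 (0.58) and cct4 (0.58). For 6 of the 7 the adjusted p was under 0.05, as it was for 4726 of all 6904 features, so this adds little. Of 6 prefoldin subunits 5 had a negative value (median -0.62), and 2 fell. These were pfd1, with 177 and 190.5 CPM at 37°C, against 472 and 495 CPM at 30°C (-1.40), and pfd2, with 104 and 110.1 CPM at 37°C, against 232 and 274 CPM at 30°C (-1.24). With offsets for GC content and length pfd2 kept the call, and pfd1 gave -0.965 and was not called. The gene of pfd1 overlaps a snoRNA on its own strand, and the reads of these were divided by the authors' counting. Of 38 proteasome and ubiquitin genes none rose and 2 fell (5.26%, against 10.5% of all features), ubi3 and ubi5, which encode ubiquitin fused to a ribosomal protein. Their levels were 2361 and 2687 CPM at 37°C, against 5990.1 and 7124 CPM at 30°C for ubi3 and 1205 and 1383 CPM at 37°C, against 2940.1 and 3862 CPM at 30°C for ubi5, without overlap.

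The genes of the general stress response were split, and most were not called. Of 24 core stress genes under Sty1 and Atf1, 2 rose (8.33%, against 4.48% of all features) and 7 fell (29.2%, against 10.5% of all features), with a median of -0.14. With offsets for GC content and length 5 members were called lower. Of the 7, fbp1, gld1 and hxk2 are counted again below among glucose-repressed genes or glycolysis, so these lists are not separate results. Those that rose were tps1, which makes trehalose phosphate, with 757 and 656 CPM at 37°C, against 225 and 199.6 CPM at 30°C (1.73), and plr1, a pyridoxal reductase, with 1442 and 1660.3 CPM at 37°C, against 516 and 478 CPM at 30°C (1.64). Those that fell were mainly enzymes of dihydroxyacetone, glycerol and sugar use: dak2 and dak1, kinases of dihydroxyacetone (-2.64 and -2.06), gld1, a glycerol dehydrogenase (-1.90), fbp1 of gluconeogenesis (-2.08), hxk2, a hexokinase (-1.08), rds1 (-2.31) and lsd90 (-1.10). The level of dak2 was 94.5 and 126 CPM at 37°C, against 719 and 654 CPM at 30°C, and that of rds1 was 154 and 149.7 CPM at 37°C, against 752 and 747 CPM at 30°C, so the 37°C values were far below those at 30°C. The catalase ctt1 (0.16), the glycerol phosphate dehydrogenase gpd1 (-0.18), the glutathione peroxidase gpx1 (-0.07) and the trehalase ntp1 (0.49) were not called. None of 18 genes of the Sty1 pathway and its transcription factors was called. In redox defence 2 of 23 rose (8.7%, against 4.48% of all features). These were the peroxiredoxin tpx1 with 1023 and 919 CPM at 37°C, against 385 and 426 CPM at 30°C (1.26) and the glutaredoxin grx1 with 1311 and 1887 CPM at 37°C, against 598 and 903 CPM at 30°C (1.09). The libraries of grx1 spread widely within each temperature. Without replicate 1 at 30°C or replicate 2 at 37°C its change was 0.83 or 0.81, under the limit.

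Genes that cells use when glucose is short had the lowest median of the 34 lists. Of 18 hexose transporters and glucose-repressed genes 10 fell, against 10.5% of all features, 1 rose, and the median was -1.21, against 0.05 for all features. The high-affinity glucose transporter ght5 had 195 and 229 CPM at 37°C, against 1272 and 1179 CPM at 30°C, a log2 fold change of -2.53 (SE 0.10, adjusted p = 6.07e-10), and ght6 (-2.04), ght1 (-2.02) and ght4 (-1.28) fell with it. Of ght5, 36.2% of the 31-base words occur more than once in the genome, and whether its reads are shared with other genes was not measured. The gluconeogenic fbp1 had 155 and 195 CPM at 37°C, against 816 and 659 CPM at 30°C (-2.08), without overlap. Invertase inv1 (-1.68), the α-glucosidase agl1 (-2.03), gld1 (-1.90), the malic enzyme mae2 (-1.14) and the repressor scr1, which silences such genes when glucose is present (-2.01), also fell. The transporter ght7 was the 1 member that rose, with 8.77 and 10.7 CPM at 37°C, against 5.16 and 4.17 CPM at 30°C (1.06); without replicate 2 of either temperature its change was 0.91 and not called. In glycolysis and fermentation 3 of 18 fell (16.7%, against 10.5% of all features) and none rose. These were hxk2 with 397 and 303 CPM at 37°C, against 747 and 733 CPM at 30°C, gpd3 with 2131 and 2115 CPM at 37°C, against 4026 and 4590.1 CPM at 30°C and pfk1 (-1.02). All 3 lie at the limit of a log2 fold change of -1 and none was called with offsets for GC content and length, and hxk2 and gpd3 lost the call in 2 and 3 of 14 alternative settings, with -0.90 for hxk2 without replicate 2 at 37°C and -0.92 for gpd3 without replicate 2 at 30°C.

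Sterol genes fell in part. Of 25 genes of ergosterol synthesis and its regulation by Sre1, the transcription factor that responds to low sterol and oxygen, 7 fell (28%, against 10.5% of all features) and none rose, with a median of -0.15. The level of sre1 was 106 and 85.1 CPM at 37°C, against 383 and 366 CPM at 30°C (-1.97), and squalene monooxygenase erg1 had 147 and 123 CPM at 37°C, against 435 and 423 CPM at 30°C (-1.66); neither overlapped. The desaturase ole1 (-1.64), erg11 (-1.59), erg25 (-1.41), erg31 (-1.31) and ptl1 (-1.27) fell as well, while erg8 (0.83) and erg32 (0.72) were the highest values of the list and were not called.

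Genes of conjugation fell in part, those of the M-factor pheromone among them. Of 28 mating and pheromone genes 9 fell (32.1%, against 10.5% of all features) and none rose, with a median of -0.42. The M-factor precursors mfm3, mfm2 and mfm1 fell by 3.05, 2.15 and 2.05 on the log2 scale. The level of mfm3 was 10.1 and 15.4 CPM at 37°C, against 74.2 and 137 CPM at 30°C and that of mfm2 was 149 and 229.6 CPM at 37°C, against 654 and 1028 CPM at 30°C; each pair of libraries spread widely, and the temperatures did not overlap. Of mfm3, 19.9% of its 31-base words occur more than once in the genome. The receptor of P-factor, mam2 (-1.71), the adhesins map4 of P cells (-1.62) and mam3 of M cells (-1.42), and mam4, which modifies M-factor (-1.04), fell too. The P-cell genes map2 (0.05) and map3 (0.47), the transcription factor ste11 (-0.83) and the meiosis regulator mei2 (-0.51) were not called. Of 31 meiotic genes 4 fell (12.9%, near the 10.5% of all features) and none rose, with a median of 0.01. They were led by meu10, needed for the spore wall, with 33.8 and 42.0 CPM at 37°C, against 188 and 206 CPM at 30°C (-2.38), and meu6, with 3.78 and 2.79 CPM at 37°C, against 11.5 and 10.9 CPM at 30°C (-1.77). Of 22 nitrogen-limitation genes 6 fell (27.3%, against 10.5% of all features) and none rose. With offsets for GC content and length 6 members were called lower and 2 higher. In the main test the ammonium transporter amt1 fell with 16.0 and 15.5 CPM at 37°C, against 56.6 and 49.6 CPM at 30°C (-1.76). The peptide transporter isp4 fell with 17.6 and 15.8 CPM at 37°C, against 56.1 and 54.8 CPM at 30°C (-1.73). Of 14 flocculins and their regulators 5 fell (35.7%, against 10.5% of all features), led by the transcription factor cbf12 (-1.49) and gsf1 (-1.47). With the same offsets 4 were called lower. As these lists mark other states of the cells, their levels also moved with temperature as sums: the mating list had 2944.5 and 3107 CPM at 37°C, against 4829 and 5058 CPM at 30°C, and the nitrogen list had 3514 and 3134.5 CPM at 37°C, against 4100.4 and 3909 CPM at 30°C. Their part in other results was not tested.

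Few genes of translation were called. Of 143 ribosomal protein genes none rose and 1 fell, rps2401, with 862 and 957 CPM at 37°C, against 2284 and 2779.5 CPM at 30°C (-1.48); the median was 0.09. Their sum differed between the 30°C libraries, with 108338 and 112091 CPM at 37°C, against 94853 and 121449 CPM at 30°C, and without replicate 2 at 30°C 9 were called higher. Nucleolar factors that build ribosomes leaned upward, with 73 of 90 positive, a median of 0.48 and 7 called higher, among them the helicase dbp10 with 212 and 202 CPM at 37°C, against 87.9 and 85.9 CPM at 30°C (1.25) and nop12 with 218 and 218 CPM at 37°C, against 103 and 97.3 CPM at 30°C (1.12). Those 7 are 7.78% of the list, against 4.48% of all features, and the number called higher ran between 1 and 11 over the alternative settings. The H/ACA protein nhp2 was the 1 that fell, with 357 and 381 CPM at 37°C, against 1197 and 1239.8 CPM at 30°C (-1.72). Of 10 RNA polymerase I subunits rpa43 fell, with 152 and 154 CPM at 37°C, against 371 and 417 CPM at 30°C (-1.36). Of 7 elongation factors the ABC-type factor eEF3, tef3, fell, with 191 and 159.8 CPM at 37°C, against 645 and 668 CPM at 30°C (-1.90), without overlap. In amino acid synthesis 4 of 67 rose (5.97%, near the 4.48% of all features), among them cys2 (1.39) and met1 (1.16) of sulfur metabolism. There 2 fell (2.99%, against 10.5% of all features), gdh1 (-1.24), which fixes ammonium, and met26 (-1.15), which makes methionine. With offsets for GC content and length 2 members were called higher and 1 lower. Of 47 nuclear genes of the respiratory chain 1 rose, the assembly factor atp11 (1.09), and 5 fell, led by cox13 (-1.32) and qcr8 (-1.23); 10.6% of the list fell, as of all features (10.5%), and 2 members with the offsets for GC content and length. In the cell cycle lists the septation gene adg2 fell, with 138 and 121 CPM at 37°C, against 657 and 635 CPM at 30°C (-2.32), 1 of 19, and the ribonucleotide reductase gene cdc22 fell, with 256 and 196 CPM at 37°C, against 566 and 551 CPM at 30°C (-1.31), 1 of 21 MBF targets. Of 25 wtf genes 3 fell, led by wtf14 (-1.60) and wtf2 (-1.30), and of 17 genes of iron uptake 1 fell, shu1 (-1.49). None of 11 histone genes, none of 13 Tf2 retrotransposons and none of 13 phosphate and thiamine genes was called; pho842, a phosphate transporter outside that list, rose, with 364 and 243 CPM at 37°C, against 62.0 and 50.1 CPM at 30°C (2.44).

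**Figure D3:**
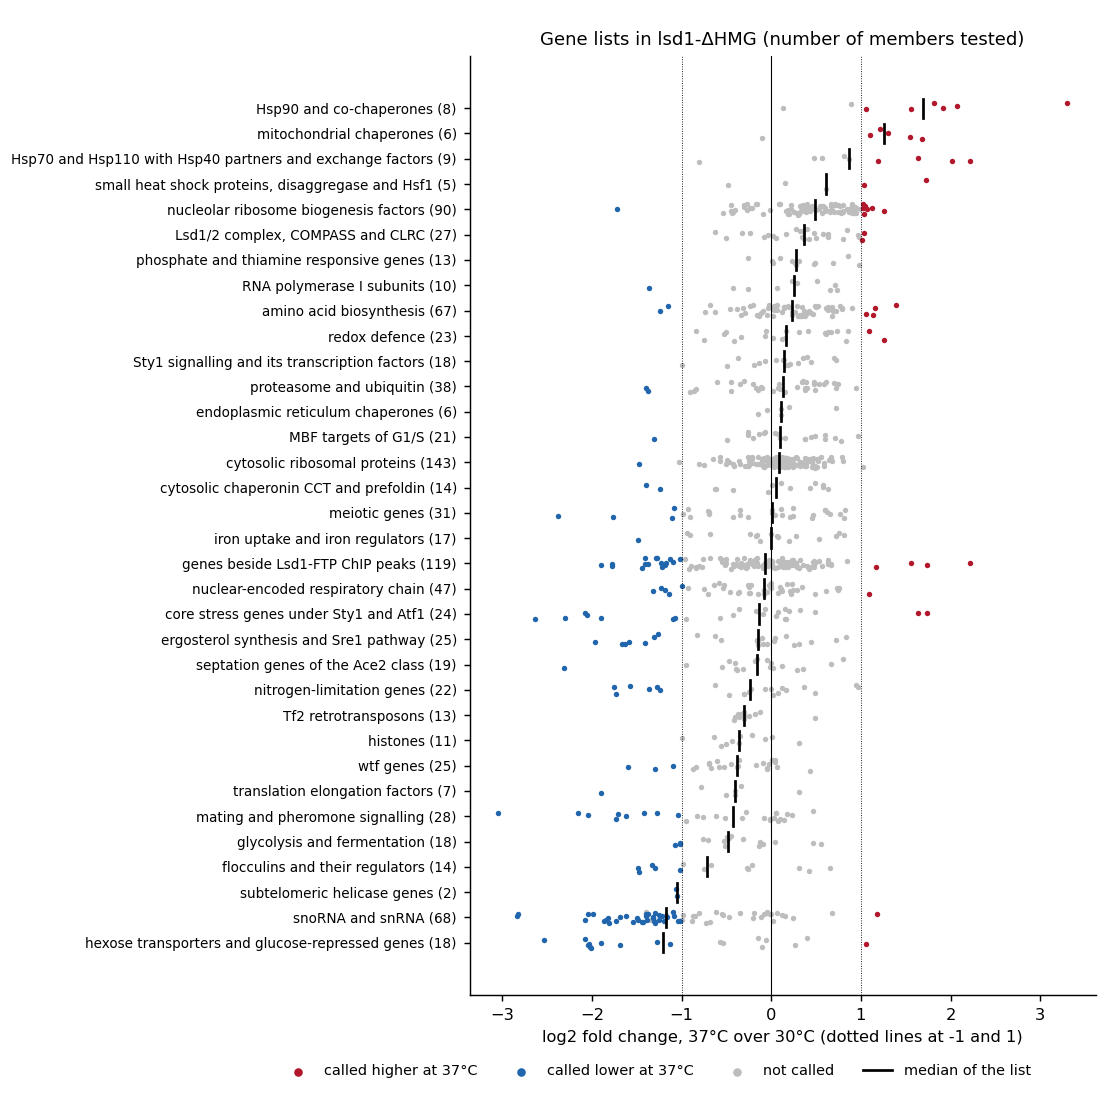
Log2 fold change at 37°C over 30°C in lsd1-ΔHMG for the members of 34 gene lists, each point 1 gene and each black bar the median, ordered by median, with dotted lines at -1 and 1. The Hsp90, mitochondrial and Hsp70 lists lie at the top with medians of 1.69, 1.26 and 0.87, and hexose transporters with glucose-repressed genes lie at the bottom at -1.21.

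Most genes of the Lsd1/2 complex and of the methyltransferase complexes COMPASS and CLRC were not called. Of 27 members 2 rose, the COMPASS subunit ash2 with 99.99 and 86.5 CPM at 37°C, against 45.5 and 47.0 CPM at 30°C and the CLRC subunit rik1 with 132 and 136 CPM at 37°C, against 66.3 and 64.3 CPM at 30°C, with log2 fold changes of 1.01 and 1.04, and none fell. Both lie at the limit and lost the call in 8 and 5 of 14 alternative settings; without replicate 1 at 30°C or replicate 1 at 37°C, ash2 gave 0.99 or 0.90. The truncated gene lsd1 itself gave -0.63, with adjusted p = 6.96e-05, and its paralogue lsd2 had 134 and 131 CPM at 37°C, against 70.2 and 65.3 CPM at 30°C (0.97, SE 0.08), just under the limit and without overlap. The level of set1 was 112 and 108 CPM at 37°C, against 76.9 and 64.4 CPM at 30°C (0.63). For clr4, the H3K9 methyltransferase, 57.9 and 50.7 CPM at 37°C, against 45.3 and 40.01 CPM at 30°C were counted (0.35), without overlap. The PHD finger genes phf1 and phf2 gave -0.33 and 0.02, and phf2 overlapped between temperatures. Of 119 genes that the study lists beside Lsd1-FTP binding peaks, 4 rose (3.36%, against 4.48% of all features; sgt1, sti1, tps1 and pss1) and 16 fell (13.4%, against 10.5% of all features), shares near those of all features, led by tef3 and the splicing factor cxr1 (-1.78), with a median of -0.07.

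Outside the lists, among genes with a mean of at least 50 counts, the largest increases of protein-coding genes were in SPBPB2B2.05, with 54.1 and 72.0 CPM at 37°C, against 6.64 and 5.16 CPM at 30°C (3.41), the But2-type gene SPAC27D7.09c, with 588 and 516 CPM at 37°C, against 69.7 and 64.1 CPM at 30°C (3.04), and the glyoxalase III hsp3104, with 396 and 441 CPM at 37°C, against 55.2 and 53.0 CPM at 30°C (2.95). Of SPAC27D7.09c 74.8% of the 31-base words occur more than once in the genome, and whether its reads can be told from those of other genes was not measured. The uncharacterised SPAC4H3.17 had 28.3 and 32.0 CPM at 37°C, against 5.77 and 5.76 CPM at 30°C (2.39), and SPCC569.04 had 2.24 and 3.15 CPM at 37°C, against 0.525 and 0.53 CPM at 30°C (2.34). None of these genes overlapped between temperatures. The largest decrease, under the same count limit, was that of SPAPJ695.02, also uncharacterised, with 243 and 355 CPM at 37°C, against 2969 and 2787 CPM at 30°C and a log2 fold change of -3.27 (SE 0.16, adjusted p = 2.62e-09). It was followed outside the lists and away from repeated sequence by the esterase gene SPAPB1A11.02, with 16.2 and 19.4 CPM at 37°C, against 145 and 137 CPM at 30°C (-2.99), mug14, annotated as an adducin, with 44.3 and 58.0 CPM at 37°C, against 366 and 408 CPM at 30°C (-2.92), pan1 of the actin patch, with 28.4 and 24.6 CPM at 37°C, against 213 and 187 CPM at 30°C (-2.92), fub2, a PI31-type regulator of the proteasome, with 22.4 and 23.5 CPM at 37°C, against 160.5 and 144 CPM at 30°C (-2.73), and the glucose-6-phosphate dehydrogenase gcd1, with 15.1 and 18.0 CPM at 37°C, against 112 and 106 CPM at 30°C (-2.72). In these genes every library at 37°C lay below every library at 30°C. Of them SPAPJ695.02 lies 74.5 kb from an end of chromosome I and fub2 85.6 kb from an end of chromosome II. The gene mug114 had 2.93 and 3.06 CPM at 37°C, against 18.6 and 21.5 CPM at 30°C (-2.74).

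Many genes near the ends of chromosomes I and II fell. Within 50 kb of an end, 17 of 34 genes on chromosome I and 14 of 28 on chromosome II fell, 50% of each, against 6.09% of the 4683 protein-coding genes over 200 kb from any end; with offsets for GC content and length 13 and 7 did. Most of the genes that fell there hold mostly sequence found more than once in the genome, so these shares do not count independent genes. The genes SPBC1348.15 and SPBCPT2R1.03, for instance, had the same CPM in each lsd1-ΔHMG library. On chromosome III, whose ends carry the ribosomal DNA arrays, 2 of 22 fell and 5 rose. Between 50 and 100 kb 14 of 105 fell (13.3%), and between 100 and 200 kb 15 of 232 (6.47%). Distances were taken from the assembly ASM294v3. The largest decreases were in SPAC977.18, with 64.9 and 87.8 CPM at 37°C, against 755 and 689 CPM at 30°C (-3.24), the gene SPAC212.12 of a GPI-anchored protein, with 11.9 and 14.2 CPM at 37°C, against 116 and 130.2 CPM at 30°C (-3.24), SPBPB2B2.18, with 61.9 and 78.6 CPM at 37°C, against 553 and 619 CPM at 30°C (-3.06), and SPAC750.07c, with 3.52 and 4.11 CPM at 37°C, against 22.7 and 34.5 CPM at 30°C (-2.90). All 4 fell without overlap. The ends of the chromosomes are built of copied blocks. Of the 31-base words of these 4 genes 88.4%, 100%, 96.3% and 100% occur more than once in the genome. The genes can therefore not be taken as independent of each other. The RecQ helicase genes tlh1 and tlh2, themselves near copies with 99.4% and 93.6% of their words repeated, had 9.19 and 11.3 CPM at 37°C, against 22.7 and 19.99 CPM at 30°C for tlh1 and 13.1 and 15.1 CPM at 37°C, against 30.7 and 27.6 CPM at 30°C for tlh2, and fell by 1.06 and 1.05 on the log2 scale; each lost the call in 4 of 14 alternative settings, with -0.97 for both without replicate 1 at 30°C and -0.92 and -0.95 without replicate 1 at 37°C. Of unrepeated genes within 50 kb of an end, gdt1 fell, with 227 and 243 CPM at 37°C, against 610.4 and 558 CPM at 30°C (-1.31), as did SPAC186.04c (-1.85) and SPAC186.06 (-1.46), while nic1, a transporter of metal ions on chromosome III, rose, with 75.2 and 77.1 CPM at 37°C, against 32.5 and 30.85 CPM at 30°C (1.26). Over all protein-coding genes, more than 50% of the words were repeated in 29 of the 347 that fell, 1 of the 187 that rose and 107 of 5104 tested.

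**Figure D4:**
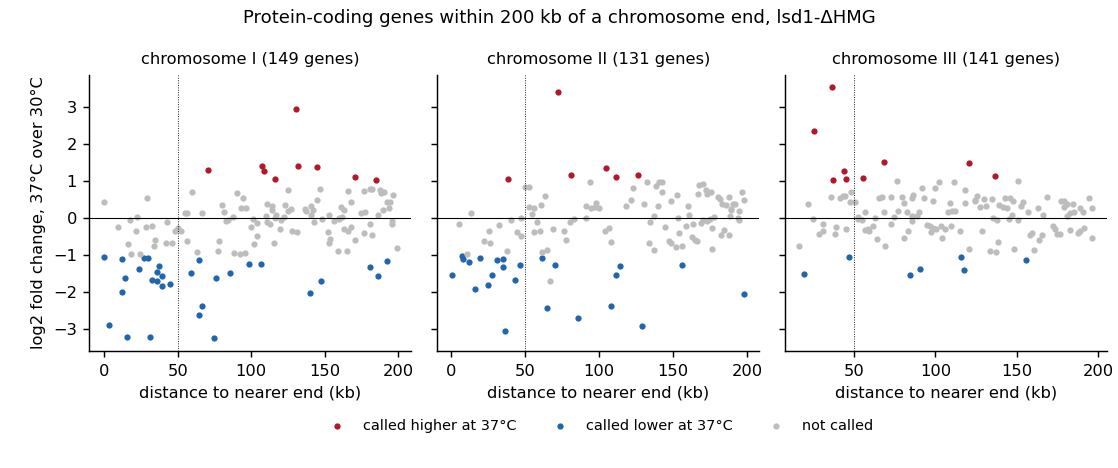
Log2 fold change at 37°C over 30°C in lsd1-ΔHMG against distance to the nearer chromosome end in kb, for the protein-coding genes within 200 kb of an end, with 1 panel for each chromosome and a dotted line at 50 kb. Blue points, called lower, gather left of the line on chromosomes I and II, where 17 of 34 and 14 of 28 genes fell, and not on chromosome III, where 2 of 22 fell. Most of these blue points on chromosomes I and II are genes of largely repeated sequence, so they are not independent.

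RNAs that do not encode proteins changed in both directions, by class. Small and ribosomal RNAs fell in part. Called lower were 32 of 63 snoRNAs, 3 of 5 snRNAs, 19 of 40 rRNA features and 16 of 36 tRNAs, against 10.5% of all features. In these classes 1 snoRNA was called higher. Of 15 mitochondrial features, not split here into coding and non-coding, 6 were called lower. In the lsd1-ΔHMG libraries tRNAs took 7.29e-04% to 0.00186% of counts and mitochondrial features 8.15e-04% to 0.00236%, so their calls rest on few reads. With offsets for GC content and length 20 of the 68 snoRNAs and snRNAs were called lower, against 35 without. Their share of all counts moved with temperature: rRNA features took 0.842% and 0.870% at 37°C, against 2.08% and 2.12% at 30°C, and snoRNAs 0.0677% and 0.0732% at 37°C, against 0.121% and 0.161% at 30°C. Libraries were made from mRNA, in which such RNAs are left over, and the part of that selection was not tested. The U5 snRNA snu5 had 0.64 and 0.493 CPM at 37°C, against 4.72 and 3.31 CPM at 30°C (-2.82), without overlap. The U1 snRNA snu1 was called lower at under 1 CPM in every library, too few counts for a fold. The 1 snoRNA that rose, snoR54b, had 1.07 and 1.34 CPM at 37°C, against 0.321 and 0.761 CPM at 30°C (1.18), and without replicate 1 at 30°C it gave 0.66 and was not called. Of 839 RNAs that lie antisense to a protein-coding gene, 90 rose (10.7%, against 4.48% of all features) and 93 fell (11.1%, near the 10.5% of all features). Of 528 other long non-coding RNAs 22 rose (4.17%) and 113 fell (21.4%). The 4 largest increases among features with a mean of at least 50 counts were in antisense RNAs. SPNCRNA.616 had 70.8 and 89.9 CPM at 37°C, against 2.80 and 2.88 CPM at 30°C, a log2 fold change of 4.82 (SE 0.14, adjusted p = 7.41e-11). SPNCRNA.1271 had 161 and 197 CPM at 37°C, against 10.2 and 9.60 CPM at 30°C (4.18), SPNCRNA.1273 had 116 and 172 CPM at 37°C, against 8.42 and 9.00 CPM at 30°C (4.05) and SPNCRNA.632 had 16.2 and 19.98 CPM at 37°C, against 1.43 and 1.92 CPM at 30°C (3.44), each without overlap. The genes on the other strand from them are otg1 (0.73), the kinase gene ckk2 (-0.32), ski3 of the exosome-linked Ski complex (1.61) and tra2, a PI kinase-like protein (1.18), of which ski3 and tra2 rose. Libraries kept strand, and the study describes separating reads by strand for a stranded analysis, but whether the counts used here come from reads so separated is not given in the sources used here, so reads of an RNA and its antisense partner cannot be told apart. Over the class, the coding partner was itself called higher for 8 of the 90 antisense RNAs that rose, lower for 2 and not called for 80. Of the 93 that fell, it was called lower for 16, higher for 1 and not called for 76. Of 656 antisense RNAs not called, the partner was called higher for 35 (5.34%) and lower for 52 (7.93%), against 8.89% higher for those that rose and 17.2% lower for those that fell, a description with no test. The largest decrease of a long non-coding RNA, under the same count limit, was in SPNCRNA.242, with 6.21 and 7.77 CPM at 37°C, against 48.8 and 65.5 CPM at 30°C (-3.03).

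The letters of the promoters were counted in the 5103 protein-coding genes tested that had a window of 250 bases before to 50 bases after the gene start. The heat shock element shown above, searched on both strands as 3 alternating units, stood in 24 windows (0.47%). It stood in 4 of the 34 chaperone genes (11.8%): in 2 of the 17 that rose, ssa1 and wis2, and in 2 of the 17 that were not called, ssa2 and cnx1. Among all genes it stood in 3 of the 187 that rose (1.6%), which are those 2 and SPBPB2B2.05, in none of the 347 that fell and in 21 of the 4569 not called (0.46%). Longer spacing or fewer units were not searched, and 15 of the 17 chaperone genes that rose, hsp90 and pss1 among them, do not hold these letters in this window. The letters TGACGT, bound by Atf1, stood in 302 windows (5.92%), in 7 of 24 core stress genes (29.2%), in 13 of the 187 genes that rose (6.95%) and in 38 of the 347 that fell (11%). The 7 core stress genes were adh4, ctt1, gpd1, gut2, ish1, ntp1 and rds1, of which rds1 fell and 6 were not called.

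The same shift was measured in set1Δ and in cells labelled WT, and the difference between responses was tested gene by gene. The response of lsd1-ΔHMG differed from that of set1Δ in 1374 of 6904 features (19.9%), 850 with a higher and 524 with a lower value in lsd1-ΔHMG. That split depends on scaling, with 61.9% higher in the main test, against 49.4% with DESeq2's size factors and 21.8% with library totals alone. Of the 309 features that rose in lsd1-ΔHMG, 212 (68.6%) rose in set1Δ too, where they were 26.8% of 790 (11.4% of all features), and of the 722 that fell 460 (63.7%) fell in set1Δ, 31.9% of 1441 (20.9% of all features). Library totals alone moved the median difference of all features to -0.38, against 0.03 in the main test. Among the 34 chaperone genes the difference was called lower in lsd1-ΔHMG for 8, against 7.59% of all features, and higher for 2, mdj1 and sil1, against 12.3% of all features. The level of hsp16 in set1Δ was 15391 and 19026 CPM at 37°C, against 829.7 and 727 CPM at 30°C, so the log2 scale gave 1.03 for lsd1-ΔHMG, against 4.47 for set1Δ, a difference of -3.44 (SE 0.23). For ssa1 the changes were 1.20 in lsd1-ΔHMG and 3.21 in set1Δ (difference -2.02), for ssa2 0.87 and 2.58 (-1.71, and -0.66, not called, with offsets for GC content and length), for fes1 2.01 and 3.34 (-1.33), and for sti1 1.56 and 3.21 (-1.65). The 30°C levels differ as well: ssa1 had 266 and 251 CPM in lsd1-ΔHMG at 30°C, against 30.8 and 29.0 CPM in set1Δ at 30°C. For wis2 (3.30 and 4.19), pss1 (2.22 and 2.14) and hsp90 (1.91 and 2.91) the difference was not called. It was -0.999 for hsp90 (SE 0.20, adjusted p = 6.83e-04) and -0.89 for wis2 (SE 0.12, adjusted p = 3.17e-05), under the limit of 1 in size, and 0.08 for pss1 (SE 0.17).

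Of the 115 named genes 3 were called in opposite directions in lsd1-ΔHMG and set1Δ. Over all features 5 of the 309 that rose in lsd1-ΔHMG fell in set1Δ, and 16 of the 722 that fell rose there. The level of mug14 fell in lsd1-ΔHMG (-2.92) and rose in set1Δ, to 1815 and 2218 CPM at 37°C, against 73.7 and 72.3 CPM at 30°C (4.79). The glycolytic gene gpd3 gave -1.02 in lsd1-ΔHMG and 1.94 in set1Δ, where it had 1262 and 853 CPM at 37°C, against 299 and 252 CPM at 30°C. The transporter ght7 gave 1.06 in lsd1-ΔHMG and -4.53 in set1Δ, where it had 0.45 and 0.34 CPM at 37°C, against 10.2 and 8.15 CPM at 30°C. At the chromosome ends some genes fell in both strains by different amounts: SPAC977.18 gave -3.24 in lsd1-ΔHMG and -8.68 in set1Δ (difference 5.44, SE 0.19), and SPBPB2B2.18 gave -3.06 and -8.42. At 30°C SPAC977.18 had 755 and 689 CPM in lsd1-ΔHMG, against 5688 and 5749 CPM in set1Δ. Within 50 kb of an end, where many genes hold repeated sequence, 33 of 84 genes fell in lsd1-ΔHMG, against 60 of 84 in set1Δ. These are 39.3% in lsd1-ΔHMG and 71.4% in set1Δ, where over 200 kb from an end 6.09% fell in lsd1-ΔHMG and 15.7% in set1Δ; set1Δ had more features called lower in all, 20.9% of those tested, and the difference between the shares was not tested.

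**Figure D5:**
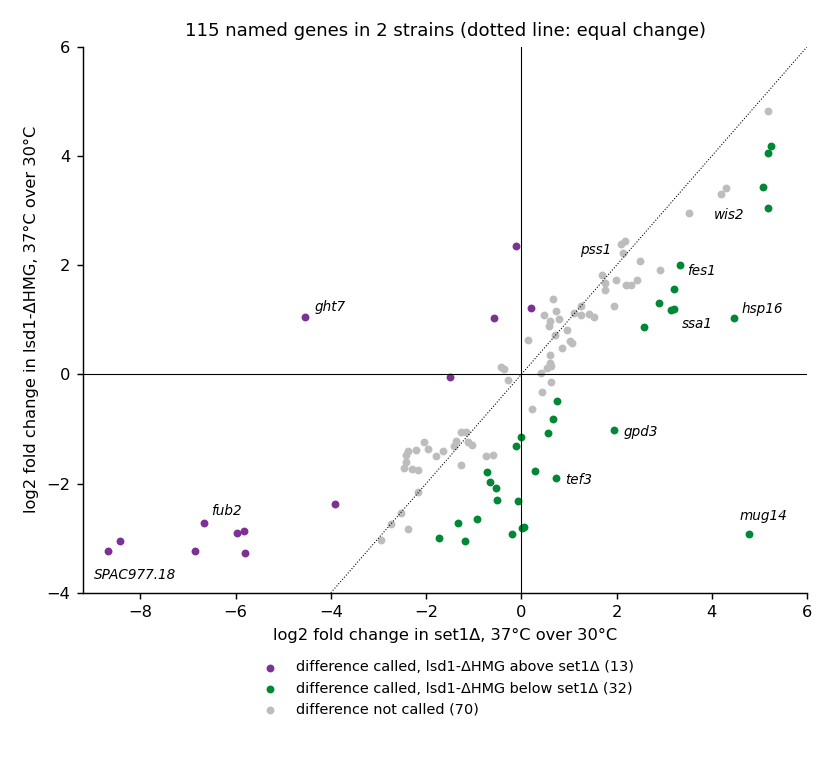
Log2 fold change at 37°C over 30°C of 115 named genes in lsd1-ΔHMG (vertical axis) and in set1Δ (horizontal axis), each point 1 gene, with a dotted line of equal change. Many of the genes were picked for their change in lsd1-ΔHMG. Purple points (13) have a called difference with a higher value in lsd1-ΔHMG, green points (32) one with a lower value, and grey points (70) have no called difference; mug14, gpd3 and ght7 lie in the quadrants of opposite direction.

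Against the libraries labelled WT the response differed in 1274 features (18.5%), 831 with a higher and 443 with a lower value in lsd1-ΔHMG; with library totals alone 47.7% were higher, against 65.2% in the main test. Of the 309 features that rose in lsd1-ΔHMG 122 (39.5%) rose in WT, and of the 722 that fell 325 (45.01%) fell in WT; these are 31.9% of the 383 that rose (5.55% of all features) and 29.6% of the 1098 that fell (15.9%) in the libraries labelled WT. For hsp16 the change was 1.03 in lsd1-ΔHMG and -2.87 in the libraries labelled WT, and for ssa1 it was 1.20 and -1.75, whereas for pss1 it was 2.22 and 2.02 and for dbp10 1.25 and 1.27. Since the WT libraries go against their temperature labels in hsp16, ssa1 and other chaperone genes and not in wis2 and pss1, no direction is drawn from these differences.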

How the data were processed

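RNA was sequenced from whole cells of 3 strains at 2 temperatures with 2 libraries each; total RNA was made into strand-specific mRNA libraries. Per the submitters' processing notes and the study's methods, reads were trimmed with Trimmomatic 0.39, aligned with STAR to ASM294v2 and counted per gene with featureCounts. The authors deposited expected counts, not normalized, in which a read that overlaps several features is divided, so that 73.7% to 83.6% of values per library are not whole. The study describes separating reads by strand for a stranded analysis; whether the counts used here come from it is not given in the sources used here. Of 34 value columns in the table of 7268 features, 12 were used and 22 were not used here.

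Counts were rounded and tested with edgeR 4.0.16 in R 4.3.3: the quasi-likelihood test (robust), TMM scaling, filterByExpr by group, 1 mean per group over all 12 libraries, and Benjamini-Hochberg adjustment over 6904 features. A feature was called where the adjusted p was below 0.05 and the log2 fold change reached 1 in size. With 2 libraries per group, p-values measure only the spread between these libraries. The study itself used limma-voom, which is one of 14 alternatives, with limma 3.58.1, DESeq2 1.42.0, other scalings and filters, GC and length offsets, a replicate block, only the libraries compared, and each lsd1-ΔHMG library left out in turn. Data were simulated with the same design and the fitted spread, with 200 features changed in random directions and no other feature changed. There 95% of changes of 1.5 and 100% of changes of 2.5 (log2) were recovered over 6873 features, and 0.51% of calls were false. The simulation held no bias by GC content or length and no lean to one direction, so errors from these were not measured. Features were matched by identifier to RefSeq on ASM294v3 (6846, 94.2%), a build other than the authors', so no gene coordinates are given. Python 3.11.15, NumPy 2.4.6, pandas 2.3.3 and matplotlib 3.10.9 served for summaries.

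The members, gene lists and tests were chosen with earlier results of these data known. Some list entries were corrected when symbols were matched, and 10 listed symbols had no match. Named genes are lsd1, lsd2, set1, clr4, phf1 and phf2, the 12 largest and 12 smallest called changes of protein-coding genes and 4 and 4 of other features, each averaging 50 counts or more without overlap, every chaperone, and up to 2 called genes in each direction of every other list. Other genes were named after their values were seen.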

Additional observations from a re-analysis of the deposited data

Results flagged for a closer look

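The responses of lsd1-ΔHMG and of set1Δ to 37°C were compared gene by gene as lsd1-ΔHMG minus set1Δ, by the difference of their log2 fold changes in edgeR's quasi-likelihood test (adjusted p under 0.05 and a difference of at least 1). Of the 115 named genes 45 differed, 13 with a higher and 32 with a lower value in lsd1-ΔHMG. Over all features 19.9% differed, 850 with a higher and 524 with a lower value. Many named genes were picked for their change in lsd1-ΔHMG, so their share and split do not stand for all features. Under the 14 alternatives 33 of the 45 were called each time, 12 lost the call in at least 1, and none changed sign. Differences from the libraries labelled WT are left out here, since those libraries go against their temperature labels in part. No group has 4 or more libraries, so single libraries were not tested for standing apart.

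Among chaperone genes the differences were -3.44 for hsp16, -2.02 for ssa1, -1.71 for ssa2, -1.65 for sti1, -1.58 for hsp78, -1.48 for sks2, -1.33 for fes1 and -1.24 for hsp9. Of these genes hsp16, ssa1, sti1, hsp78 and fes1 rose in both strains, and ssa2 rose in set1Δ and gave 0.87 in lsd1-ΔHMG, where it was not called. The 2 with a higher value in lsd1-ΔHMG were sil1 (1.45), which gave -0.05 in lsd1-ΔHMG and -1.50 in set1Δ, and mdj1 (1.02), which gave 1.21 in lsd1-ΔHMG and 0.20 in set1Δ; mdj1 lost its call in 6 of 14 alternatives, with 0.60 at the lowest. With offsets for GC content and length ssa2 gave -0.66 and sks2 -0.56, not called.

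In carbon use the differences were 5.59 for ght7, -2.96 for gpd3, -1.78 for rds1, -1.71 for dak2, -1.65 for hxk2, -1.56 for fbp1 and -1.38 for the glucose-6-phosphate dehydrogenase gcd1. The gene mug14 differed by -7.71, and it, gpd3 and ght7 were called in opposite directions in the strains. In lsd1-ΔHMG hxk2, fbp1, dak2 and rds1 fell, while set1Δ gave 0.57, -0.52, -0.93 and -0.52 for them, none called. With offsets for GC content and length rds1 gave -0.83 and gcd1 -0.94, not called.

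Near the chromosome ends SPAC977.18 (5.44), SPBPB2B2.18 (5.36), SPAC212.12 (3.61), SPAC750.07c (3.06) and the non-coding SPBCPT2R1.06c (2.96) had higher values in lsd1-ΔHMG; each fell in both strains, with set1Δ values of -8.68, -8.42, -6.85, -5.96 and -5.82, and these sequences are copies of each other in large part. Further in lie fub2 (3.95), 85.6 kb from an end of chromosome II, and SPAPJ695.02 (2.53), 74.5 kb from an end of chromosome I. Both genes fell in both strains, with -2.73 and -3.27 in lsd1-ΔHMG and -6.67 and -5.80 in set1Δ. Among other genes the spore wall gene meu10 (1.53) gave -2.38 in lsd1-ΔHMG and -3.90 in set1Δ. The difference was 2.46 for SPCC569.04 and 1.60 for rik1, which rose in lsd1-ΔHMG and gave -0.12 and -0.57 in set1Δ.

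Lower values in lsd1-ΔHMG were found for pan1 of the actin patch (-2.73), the elongation factor tef3 (-2.62), the septation gene adg2 (-2.26), meu6 (-2.05), the pheromone precursor mfm3 (-1.87), the sterol regulator sre1 (-1.32), the esterase SPAPB1A11.02 (-1.26), cdc22 of ribonucleotide reductase (-1.19), met26 (-1.14) and the splicing factor cxr1 (-1.07). Each of these 10 fell in lsd1-ΔHMG, and mfm3 and SPAPB1A11.02 fell in set1Δ too. With offsets for GC content and length met26 gave -0.24, cdc22 -0.65, cxr1 -0.85 and sre1 -0.87, none called; met26 gave -0.96 without replicate 2 at 37°C and cxr1 -0.99 without replicate 1 at 37°C. The But2-type gene SPAC27D7.09c differed by -2.13, with 3.04 in lsd1-ΔHMG and 5.18 in set1Δ.

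Among RNAs that encode no protein the differences were -1.64 for SPNCRNA.632, -1.13 for SPNCRNA.1273, -1.06 for SPNCRNA.1271 and -1.97 for snoR54b, all of which rose in both strains. Without replicate 1 at 37°C SPNCRNA.1273 gave -0.87 and SPNCRNA.1271 -0.92, and without replicate 2 at 30°C snoR54b gave -1.25, none called; SPNCRNA.1273 also lost the call with the offsets. For the U5 snRNA snu5 (-2.83) and ENSRNA049678253 (-2.85), both at low counts, lsd1-ΔHMG gave -2.82 and -2.80 and set1Δ 0.01 and 0.05.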

How the results depend on the processing

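Over the 14 alternatives no called named gene and no called feature changed sign; 74 of the 92 called named genes kept the call in every alternative, and 18 lost it in at least 1. These were ash2 (in 8), hsp16 and ght7 (6 each), cdc37 and rik1 (5), tlh1 and tlh2 (4), grx1, gpd3 and snoR54b (3), mcp60, hxk2, atp11 and met26 (2), and pfd1, nop12, ubi3 and snu1 (1). Of uncalled genes lsd2, sks2 and ssa2 became called in at least 1. The 1031 calls became 119 at an adjusted p of at most 0.0001 where the log2 fold change also reached 2 in size, and 4726 at an adjusted p under 0.05 with no limit on the fold. Other settings gave 828 calls (GC and length offsets, which kept 440 and lost 197 of the 637 lower calls that could be fitted, with 85 not fitted) to 1095 (scaling on protein-coding genes), and leaving out 1 library gave 959 to 1123. GC and length offsets moved the share of higher calls to 39.7%. Values that turned sign were all uncalled: phf2 gave -0.060 with DESeq2 and with its size factors, -0.046 with GC and length offsets, -0.082 with scaling on protein-coding genes, -0.044 with the 4 libraries alone and -0.118 without replicate 1 at 37°C (0.148 without replicate 2 at 37°C), git7, pdi1 and ero12 gave -0.028, -0.027 and -0.135 with GC and length offsets, and sil1 gave 0.021 with library totals. The number of differences from set1Δ was 1101 to 1536 over the alternatives and that from the libraries labelled WT 1093 to 1358. Each group has 2 libraries, so the estimate of spread rests mainly on what all features share.

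Nothing in the labels ties replicates of the same number, and whether the numbers pair the libraries was not settled: deviations of same-numbered libraries correlated at 0.333 in lsd1-ΔHMG, 0.0846 in set1Δ and -0.00419 in WT, with only 2 numbers each. With the replicate number as a block 1041 features were called, 310 higher and 731 lower, of which 309 and 715 were shared with the test without it, 1398 differed from set1Δ and 1274 from WT.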
